A study of Rattus norvegicus with 74 samples.

Results

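The genes described here are the small nucleolar RNAs (snoRNAs) and small Cajal body RNAs (scaRNAs) detected in whole skeletal muscle of the rat. Genes of these biotypes were taken when they had at least 10 counts in at least 15 of the 30 whole-muscle libraries. Of 1743 snoRNA and scaRNA genes among 30560 genes in all, 58 met this rule. The rule used whole-muscle counts of both arms together, so a high level in whole muscle is a consequence of the choice. Of the 58 genes, 29 had at least 10 counts in every whole-muscle library, while 1065 of the 1743 had no count in any of them. Just inside the rule, Snord104, Gm23346 and AABR07061869.1 reached 10 counts in 15 libraries with a median of 9.5 counts. Just outside it, Gm25878 reached 10 counts in 14 libraries (median 9 counts) and AABR07005004.3 and Gm25791 in 13 (median 8.5 counts).

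snoRNAs are short nuclear RNAs that pair with other RNAs and bring enzymes to them. C/D box snoRNAs (symbols beginning Snord) guide 2'-O-methylation by fibrillarin, and H/ACA box snoRNAs (symbols beginning Snora) guide pseudouridylation by dyskerin, mostly on ribosomal RNA in the nucleolus. Some, such as U3 and SNORA73 (U17), act in cleavage of the ribosomal RNA precursor. scaRNAs work in Cajal bodies, where they guide the same modifications on the RNAs of the spliceosome. In mammals most of these RNAs are released from introns of host genes. By symbol or biotype 9 of the 58 were C/D box, 9 were H/ACA box and 9 were scaRNAs, and the names of the other 31 gave no class. Of these 31, 3 had no symbol and are given by identifier.

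All rats were male wild-type Wistar Kyoto, aged 9 weeks at sampling, and drank water containing 8% deuterium oxide. Trained rats (ExT) ran on a treadmill 5 days each week over 4 weeks, beginning when they were 5 weeks old. Sessions lasted up to 60 min, at 15 m/min in the first week and 20 m/min later, and tissue was taken 24 h after training ended. Sedentary rats (Sed) spent those sessions on a stationary belt. The inner red gastrocnemius of 30 rats gave both whole-muscle libraries (SM) and libraries of mitochondria (MT), isolated by immunoprecipitation with RNase-A and proteinase-K steps afterwards. The left ventricle wall (LV) was sequenced for 14 of these rats. SM_Sed, SM_ExT, MT_Sed and MT_ExT held 15 libraries each, and LV_Sed and LV_ExT held 7 each, with 1 library per rat and tissue. SM (50 ng of RNA) and MT (10 ng) were prepared with a Zymo RiboFree kit and LV (100 ng) with an Illumina TruSeq Ribo-Zero kit, so tissue and kit cannot be told apart between LV and SM.

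Total counts spanned 19477976 to 39401323 in SM libraries, 530397 to 9988027 in MT and 54645657 to 75758777 in LV. Genes of the mitochondrial genome took 12.9% to 95.4% of MT counts, so levels are given as CPM with the nuclear-encoded counts of the library as the total. Skeletal muscle markers (8 of 9 in the tables) summed to 132373 to 178274 CPM in SM, 711 to 3109 in MT and 16210 to 22933 in LV. The 7 heart markers summed to 21.8 to 121 CPM in SM, 487 to 685 in MT and 49305 to 62083 in LV. Vomeronasal receptor genes, 145 genes with no known role in muscle, summed to 0.148 to 1.10 CPM in SM and 0.433 to 1.87 in LV but 2404 to 3724 in MT. Rats numbered 2 to 16 and 17 to 32 differed in many genes in SM, with both arms in each range. The SM libraries of trained rats 22 and 25 held few counts of several genes, with 0 and 6 counts of Snord17 and 1 and 6 of Snora23. Sedentary rat 19 was also low for Snord17 (5 counts) but had 15 counts of Snora23. Values of named genes that moved by over 1.5 times without trained rats 22 and 25 are also given without them.

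Summed over the 58 genes, SM_Sed libraries held 295 to 556 CPM with a median of 432 (mean 434 ± 73.9, SD, n = 15). SM_ExT libraries held 273 to 622 CPM with a median of 384 (393 ± 86.2, SD, n = 15), and the arms overlapped over most of their range. Scarna2, which guides modification of the U2 spliceosomal RNA, and Gm22009, annotated as a scaRNA, together took a median of 46.6% of the SM counts of the 58 genes. In LV this portion was 38.3%, and in MT it was 11.05%. The mean level in SM_Sed was 104 CPM for Scarna2 and 94.7 for Gm22009. It was 34.0 CPM for Gm26397, 31.1 for Gm22988, 26.6 for the scaRNA AABR07065438.2 and 23.2 for Scarna10. It was 13.5 CPM for the scaRNA Gm25395 and 11.1 for SNORA73 (ENSRNOG00000061536). These levels are not per length and do not rank the genes by molecules.

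Genes differed in how evenly they ran across sedentary rats. Scarna2 lay between 81.9 and 140 CPM with a median of 106, a coefficient of variation of 16.6% (n = 15). AABR07065593.1 (15.1%) and ENSRNOG00000066251 (22.2%) were the other steady genes. Snord17, a guide for 28S ribosomal RNA, lay between 0.240 and 4.13 CPM with a median of 1.45 and a coefficient of variation of 70.2%. SNORD22 (71.9%) and the scaRNA Gm24644 (63.9%) also varied widely, with medians of 0.674 and 0.497 CPM.

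**Figure D1:**
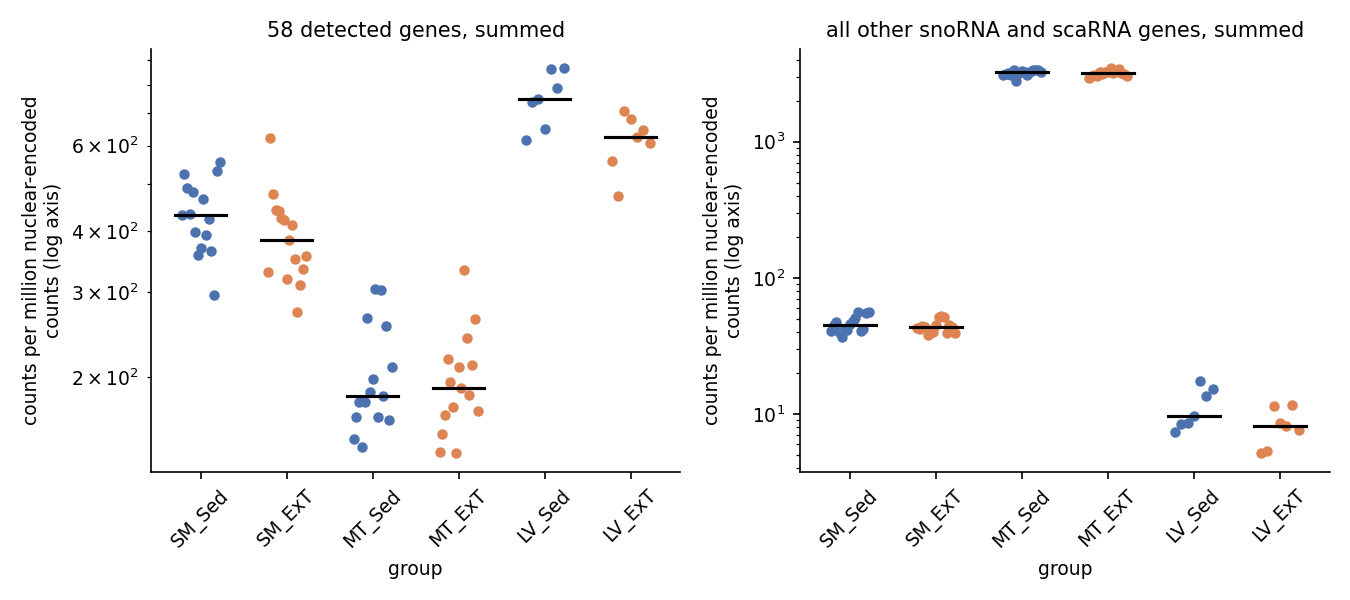
Summed CPM (log axis) of each library in the 6 groups, for the 58 detected genes (left) and the 1685 other snoRNA and scaRNA genes (right); points are libraries and bars are medians. The detected genes are lowest in MT and highest in LV, whereas the other genes have a median of 3208 CPM in MT against 43.6 in SM and 8.66 in LV.

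Training left no detected snoRNA or scaRNA past the test in whole muscle, although most values lay below 0. Of the 58 genes 57 were tested, and edgeR called 0 at an adjusted p under 0.05, where 0.206% of all 13570 genes tested were called. DESeq2 also called 0 of the members. The log2 fold change of ExT against Sed was below 0 for 50 of the 57, with a median of -0.22, against 52.1% of all genes and a median of -0.01. An unadjusted p under 0.05 was found for 9 members, all with negative values, and for 13.7% of all genes, which is near the members' share. Without trained rats 22 and 25 the median was -0.21, with 48 of 57 below 0 and 6 members at an unadjusted p under 0.05. Values were below 0 for all 9 C/D box genes (median -0.38), 8 of 9 H/ACA box genes (-0.22), 7 of 9 scaRNAs (-0.24) and 26 of 30 genes of unnamed class (-0.20). Other short RNAs in the same libraries lay on both sides. Below 0 were 15 of 15 misc_RNA genes (median -0.27), 9 of 11 snRNA genes (-0.22) and 14 of 20 miRNA genes (-0.11), with 0 called. Of 7 Mt_tRNA genes, the transfer RNAs of the mitochondrial genome, 2 were below 0 (median 0.06, 0 called), and the 5 nuclear rRNA genes lay above 0 (median 0.42, 0 called). The part that library composition has in the members' values was not tested.

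A SNORA73 copy, Scarna6 and U3 had the smallest p of the tested members in muscle. SNORA73 (ENSRNOG00000061662), which acts in cleavage of the ribosomal RNA precursor, had 2.33 to 7.32 CPM in SM_Sed (median 4.14) and 1.96 to 5.66 in SM_ExT (median 3.32). The arms overlapped, and its difference was -0.52 in log2 (SE 0.17) with an adjusted p of 0.166 by edgeR. The tables hold 3 genes of this name, and how reads were split between near-identical copies is uncertain. The other copies had values of -0.37 and -0.29. Scarna6, a guide for spliceosomal RNA, had 1.96 to 12.8 CPM in SM_Sed (median 5.68) and 0.330 to 6.39 in SM_ExT (median 3.18). Its lowest library was that of trained rat 25, and the arms overlapped. Its log2 difference was -0.77 (SE 0.30), with an adjusted p of 0.252 by edgeR, and -0.61 without trained rats 22 and 25 (adjusted p 0.301). U3 had 1.08 to 6.82 CPM in SM_Sed (median 1.97) and 0.692 to 3.06 in SM_ExT (median 1.88). Here too the arms overlapped, with a log2 difference of -0.65 (SE 0.26) and an adjusted p of 0.267 by edgeR.

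The remaining scaRNAs were not called with training in muscle either. Scarna2 had medians of 106 and 104 CPM in SM_Sed and SM_ExT and a log2 difference of -0.01 (SE 0.07). Gm22009 had medians of 97.9 and 86.6 CPM (-0.24, adjusted p 0.370 by edgeR), and Scarna10 24.9 and 20.6 (-0.19). Gm22442 stood at -0.60, Gm25395 at -0.31 and AABR07065438.2 at -0.30. AABR07032532.1 (0.06) and Gm24644 (0.17) lay above 0. Without trained rats 22 and 25 the values of Gm25395, AABR07065438.2 and Gm24644 were -0.20, -0.18 and 0.08, and that of Scarna2 was 0.0018.

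In the left ventricle every tested member had a value below 0, and again none passed the test. The sum over the 58 genes was 617 to 865 CPM in LV_Sed (752 ± 96.0, SD, n = 7) and 472 to 707 in LV_ExT (614 ± 79.5, SD, n = 7). All trained libraries lay under the sedentary median of 749 CPM, but the ranges overlapped. Only 23 of the 58 genes passed the filter on low counts. Their log2 fold changes lay between -0.68 and -0.07 with a median of -0.36, while 50% of the 14488 genes tested were below 0 with a median of 0.00. edgeR called 0 members and 0% of all genes, and DESeq2 called 0 members. An unadjusted p under 0.05 was found for 9 members, all negative, and for 5.9% of all genes. The sign was shared by 14 of 16 misc_RNA genes (median -0.28), 4 of 4 ribozyme genes (-0.19) and 3 of 3 snRNA genes (-0.35), with 0 called. It was also shared by the tested genes of the members' biotypes outside the rule, 4 of 4 snoRNAs (-0.44) and 2 of 2 scaRNAs (-0.73). Of 3 nuclear rRNA genes 1 was below 0 (median 0.14, 0 called). The part of library composition was not tested here either. Leaving out the single rat of each arm numbered 2 to 16 kept all 23 values below 0, with a median of -0.37.

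SNORA73 (ENSRNOG00000052439) had 3.53 to 7.56 CPM in LV_Sed (median 6.66) and 2.78 to 4.34 in LV_ExT (median 3.88). The arms overlapped, with a log2 difference of -0.58 (SE 0.16) and an adjusted p of 0.804 by edgeR. Gm22009 had 154 to 199 CPM in LV_Sed (median 183) and 116 to 172 in LV_ExT (median 152), a difference of -0.22 (SE 0.07) with the same adjusted p. AABR07065438.2 had 28.4 to 39.4 CPM in LV_Sed (median 35.3) and 25.4 to 30.9 in LV_ExT (median 29.3), a difference of -0.21 (SE 0.07). Nearest to 0 were AABR07072025.1 at -0.07 and Scarna2 at -0.09.

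**Figure D2:**
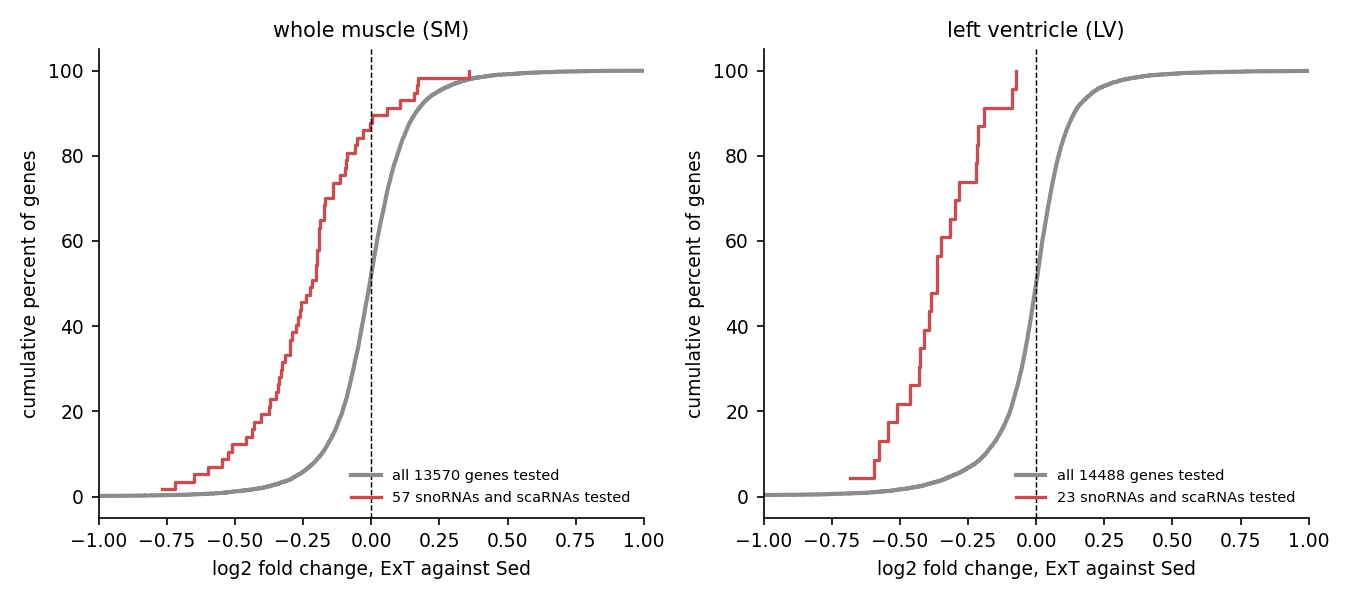
Cumulative percent of genes (y axis) by log2 fold change of ExT against Sed (x axis) in SM and LV, for the tested snoRNAs and scaRNAs and for all tested genes. The curves of the small RNAs lie to the left of those of all genes, with medians of -0.22 and -0.36 against -0.01 and 0.00, and no single one of them was called.

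In mitochondria only Scarna2 had enough counts for the training test. It had 7.89 to 59.4 CPM in MT_Sed (median 17.3) and 2.12 to 53.5 in MT_ExT (median 14.3), overlapping, with a log2 difference of -0.27 (SE 0.34). edgeR called 0% of 19281 genes, of which 4.73% had an unadjusted p under 0.05, and Scarna2 was not among these. Whether the training value differed between tissues was tested directly. For MT against SM, edgeR called 0 of 57 members and 0.0181% of 27684 genes, with 3 members and 8.5% of genes at an unadjusted p under 0.05. Since only Scarna2 had enough MT counts, this says little of the other members. For LV against SM it called 0 of 58 members and 0% of 15049 genes, with 0 members and 4.57% of genes at an unadjusted p under 0.05. Of these 58, only 23 passed the filter in LV and 15 had no LV count, so low LV counts limited this test for the others. DESeq2 called 0 members in either.

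In muscle, 13 of 57 members were lower in rats 17 to 32 than in rats 2 to 16 with the arm in the model, and 0 were higher. Over all genes 13% were called, 6.99% lower and 6% higher. The genes were chosen on these same SM counts, over both ranges together. Those near the rule may have met it mainly through the range where they were high, so the numbers of lower and higher members are descriptions. Without trained rats 22 and 25 there were 11 lower, and Gm24313 (-0.87) and AC114512.2 (-0.76) were no longer called. Snord17 had 1.32 to 4.13 CPM in Sed and 0.828 to 2.94 in ExT among earlier rats. Among later rats it had 0.240 to 3.23 CPM in Sed and 0 to 1.19 in ExT. The later medians, 0.541 and 0.573 CPM, were below every earlier library, while the ranges overlapped in both arms. Its log2 difference was -1.43 (SE 0.30) with an adjusted p of 0.0017 by edgeR. Of the SNORD15 copies, guides for 28S ribosomal RNA, ENSRNOG00000052293 was lower at -1.20 (SE 0.25, adjusted p 0.00108 by edgeR) and ENSRNOG00000055569 was not called at -0.16. The lower copy lay near the rule, with median counts of 16 (Sed) and 12 (ExT) in earlier rats and 7.5 and 9 in later ones.

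Among the scaRNAs, Scarna6 (-0.94), AABR07065438.2 (-0.93) and Gm25395 (-0.92) were lower in later rats, while Scarna2 (-0.06) and Scarna10 (-0.05) were not called. The further lower genes were AC120949.4 (-0.97), Gm24336 (-0.84), ENSRNOG00000069135 (-0.78), Gm25848 (-0.75), Gm24119 (-0.55) and AC105648.7 (-0.53). Of 9 H/ACA box genes 0 were called. Among the other short RNAs, 14 of 15 misc_RNA genes and all 5 rRNA genes had values above 0, with 3 and 4 called. Of 7 Mt_tRNA genes 6 were below 0 (3 called), and of 20 miRNA genes 11 were below 0 (3 called). The labels do not say what the number ranges stand for, and the cause of the difference was not tested.

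The training values in muscle were below 0 for most members within both ranges. In rats 2 to 16 the median was -0.13 with 35 of 50 below 0, and in rats 17 to 32 it was -0.32 with 46 of 56 below 0. The sums averaged 446 CPM in Sed and 451 in ExT in the earlier range, and 425 and 342 in the later one. The test of the difference between the ranges called 0 of 57 members and 0% of all genes by edgeR, with 2 members and 13.3% of genes at an unadjusted p under 0.05. With the range as a covariate the median was -0.23 and the smallest adjusted p of a member was 0.123. At an unadjusted p under 0.05 by edgeR were 17 of 57 members with this covariate. Within the ranges there were 5 of 50 in rats 2 to 16 and 14 of 56 in rats 17 to 32. The share of all genes at that p was not computed for these fits.

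**Figure D3:**
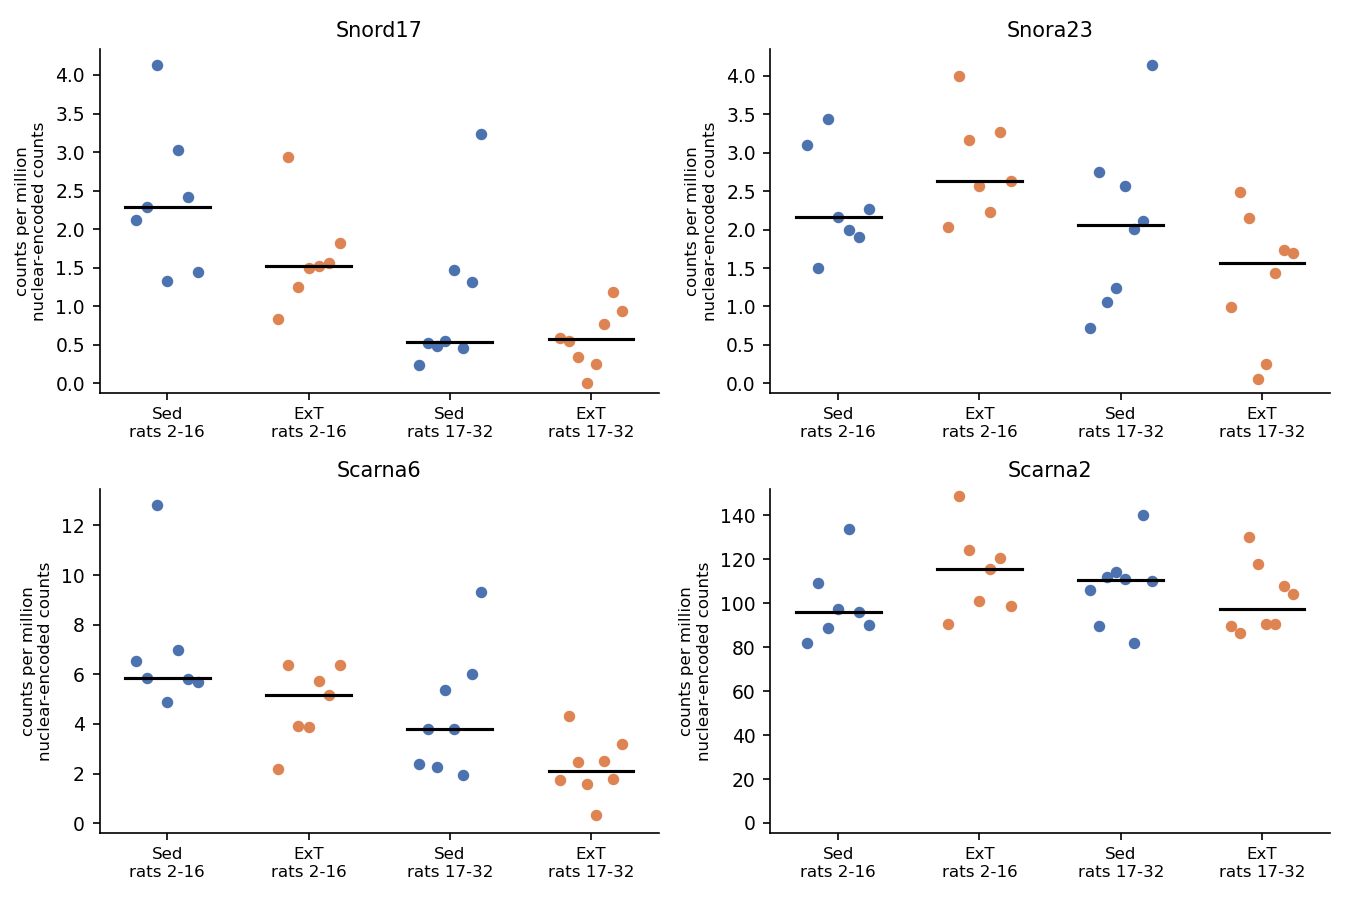
CPM (y axis) of 4 genes in each whole-muscle library, by arm and by rat number; bars are medians. Snord17 and Scarna6 have lower medians in rats 17 to 32 in both arms, Snora23 has its lowest library in a later trained rat, and Scarna2 differs little.

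The left ventricle held some of these RNAs at higher levels than muscle and many at or near 0. Since the genes were chosen on their SM counts, the numbers of higher and lower genes here are descriptions. The rat ranges were also uneven: SM_Sed held 7 rats numbered 2 to 16 and 8 numbered 17 to 32, but LV_Sed a single earlier rat. In LV_Sed against SM_Sed, 10 of 57 were higher and 42 lower, with 82.2% of all 14243 genes called, 41.4% higher and 40.8% lower. In LV_ExT against SM_ExT, 11 of 58 were higher and 43 lower, with 81.9% of genes called, 41% higher and 40.8% lower. In LV, 23 of the 58 had a median of at least 10 counts and 23 had a median of 0, of which 15 had no count in any of the 14 libraries. Without any LV count were 3 of 9 C/D box genes (SNORD79, Snord78 and Snord104), 0 of 9 H/ACA box genes, 1 of 9 scaRNAs (AABR07032532.1) and 11 of 31 genes of unnamed class. In whole tissue, fewer cells of a type and less RNA per cell cannot be told apart. Kit and RNA input also differed between LV and SM, and their part in these counts cannot be told apart from tissue.

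The 10 genes higher in LV_Sed were 3 scaRNAs, U3, a SNORA73 copy and 5 genes of unnamed class. ENSRNOG00000066251 had 24.2 to 47.1 CPM in LV_Sed (median 40.2) and 1.5 to 3.29 in SM_Sed (median 2.18), a log2 difference of 3.51 (SE 0.11). U3 had 14.3 to 35.1 CPM in LV_Sed (median 21.9), a difference of 2.46 from its SM_Sed values given above. Scarna6 had 30.9 to 49.2 CPM in LV_Sed (median 38.1), a difference of 2.19. Scarna10, a guide for spliceosomal RNA, had 133 to 171 CPM in LV_Sed (median 158) and 11.5 to 37.5 in SM_Sed (median 24.9), a difference of 2.15 (SE 0.16). For each of these 4 genes every LV_Sed library was above every SM_Sed library. Over all 58 genes 7 were higher and 34 lower in LV_Sed without overlap in CPM. The share of all genes without overlap was not computed. Scarna2 was lower in LV_Sed, with medians of 91.5 against 106 CPM (-0.70, SE 0.07). These CPM medians are nearer to each other than its log2 difference. edgeR scaled the log2 differences over all genes, whereas CPM uses nuclear-encoded totals, so the sizes differ and small differences depend on the scaling. The 3 SNORA73 copies differed among themselves, at 1.05, -0.68 and -1.37.

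Some genes well detected in muscle had almost no LV counts. Gm26397 had 23.9 to 54.2 CPM in SM_Sed (median 30.7) and 0.183 to 0.808 in LV_Sed (median 0.318), with no overlap and a log2 difference of -6.96 (SE 0.28). The 4 furthest below 0 had no LV_Sed count, so only a bound is given, against a floor of 3 counts per library (0.0806 CPM on average over LV_Sed). AC105648.7 was at least 35.8-fold lower, Gm24494 at least 25.8-fold, Gm26224 at least 23.3-fold and AC113837.6 at least 22.9-fold. Over the 17 members without an LV_Sed count the bounds ran from 5.82-fold to 35.8-fold. With these genes at their bound the median log2 difference of the 57 was -3.16, against -5.20 as fitted. For LV_ExT against SM_ExT the median of the 58 with such genes at their bound was -2.90.

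**Figure D4:**
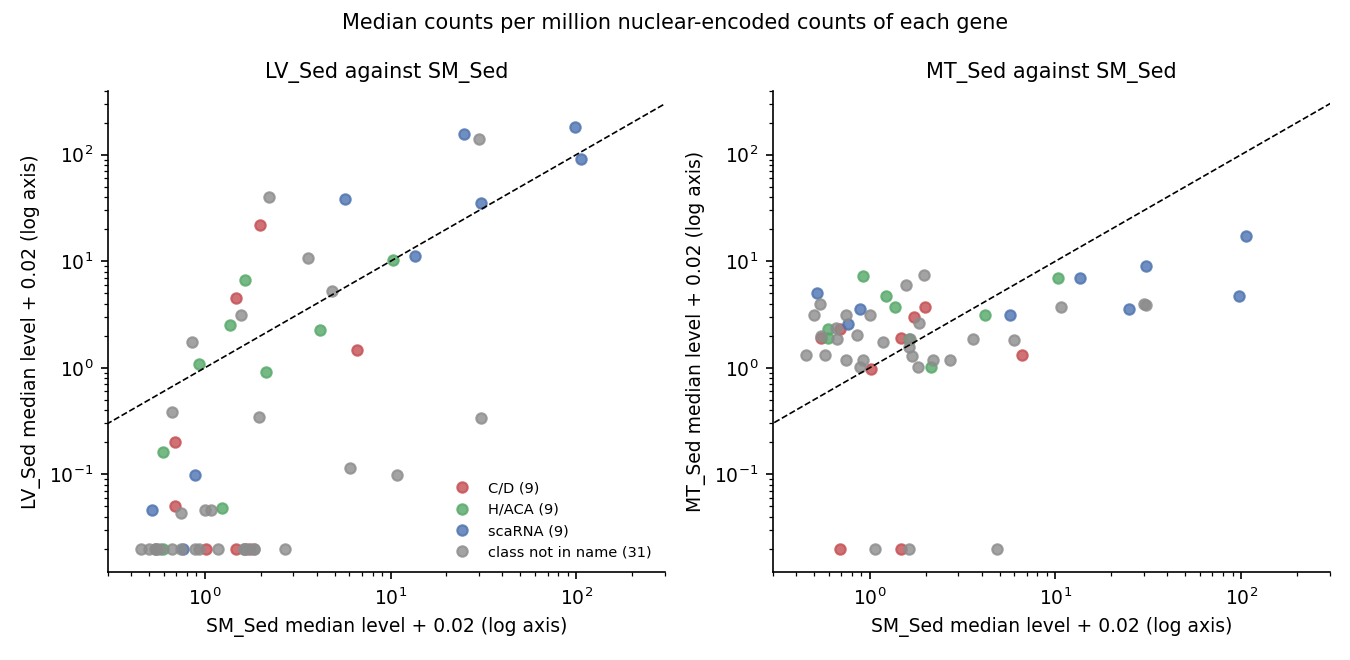
Median CPM of each of the 58 genes in LV_Sed and in MT_Sed against SM_Sed, on log axes with 0.02 added; colours mark the class and the dashed line marks equal levels. In LV a row of genes lies at 0 while Scarna10 (158 against 24.9) lies above the line, and in MT the highest median is that of Scarna2 (17.3).

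Mitochondrial libraries held these RNAs at low counts. A library had 0 to 6 of the 58 genes with at least 10 counts, 43 genes had a median under 3 counts, and the highest median was 12, that of Scarna2. The sum was 143 to 304 CPM in MT_Sed and 140 to 333 in MT_ExT. The 1685 other snoRNA and scaRNA genes summed to 2800 to 3443 CPM in MT, and the 58 genes took a median of 5.29% of all snoRNA and scaRNA counts there, against 90.3% in SM and 98.7% in LV. Their part among the genes of these biotypes is 3.33%. Thinned to 430162 nuclear-encoded counts per library, a median of 29 of the 58 had a count in SM, 37 in MT and 16.5 in LV. Of the other snoRNA and scaRNA genes a median of 808.5 had a count in MT, against 19 in SM and 2 in LV.

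The genes were chosen on their SM counts and most were tested through these counts, so the numbers of higher and lower members in MT are descriptions too. In MT_Sed against SM_Sed, 2 of 40 tested members were higher and 33 lower, with 94.8% of genes called, 61.7% higher and 33.1% lower. In MT_ExT against SM_ExT, 2 of 40 were higher and 32 lower, with 94.3% of genes called, 59.3% higher and 35% lower. Without trained rats 22 and 25 only 23 members passed the filter in ExT, 0 higher and 22 lower. The median over members was -2.32 in Sed, where the median over all genes was 1.81. The split depends on the scaling: with library totals 7 were higher and 21 lower in Sed, and the median CPM was higher in MT_Sed than in SM_Sed for 32 of the 58 and lower for 26.

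Gm22009 was furthest below 0 in MT among the tested members, with 50.6 to 127 CPM in SM_Sed (median 97.9) and 0 to 10.1 in MT_Sed (median 4.70, a median of 4 counts), and the groups did not overlap. Gm26397, ENSRNOG00000069135 and Gm22988 followed, with Scarna10 and Scarna2 after them. For the first 4 of these 5 genes the MT_Sed median was 3 counts or less, so no fold is given. The MT_Sed medians were 3.88 CPM for Gm26397 (SM_Sed 30.7), 3.91 for Gm22988 (29.9) and 3.52 for Scarna10 (24.9). ENSRNOG00000069135 had no count in 10 of the 15 MT_Sed libraries, against a median of 4.81 CPM in SM_Sed. Scarna2, with a median of 13 counts in MT_Sed, had a log2 difference of -4.30. The members called higher in MT_Sed were Snora17, with 0.310 to 1.76 CPM in SM_Sed (median 0.904) and 1.17 to 21.5 in MT_Sed (median 7.30), and Gm24644, with medians of 0.497 and 4.96 CPM. These MT_Sed medians stand for 4 and 3 counts. Vomeronasal receptor genes and the other snoRNA and scaRNA genes also held counts in MT, as given above, and the part of such background in the members' MT levels was not tested.

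For 7 members a host gene in the tables was found among 11 whose symbol matched a single RefSeq gene, and several hosts differed from their small RNA between LV_Sed and SM_Sed. Scarna10 was higher (2.15) while Ncapd2, a condensin subunit, was not called (-0.14). Scarna6 was higher (2.19) while Atg16l1, an autophagy gene, was not called (-0.02). Snora5c had 0.414 to 2.08 CPM in SM_Sed and 0 to 0.104 in LV_Sed, a median of 1 count, so no fold is given, while Tbrg4 was higher (0.22). Snora23 was lower (-1.93) while Ipo7, a nuclear import receptor, was not called (-0.01). SNORD24 had no count in LV_Sed and was at least 22.4-fold lower, while the ribosomal protein gene Rpl7a was higher (0.86). Snora30 (-2.49) and Srcap (-1.44) were both lower, and Snord17 was not called (0.77) while Snx5 was higher (0.73). With LV and SM compared within the same rats (replicate block), Snord17 was called higher in LV_Sed. Between the rat ranges in SM, Snx5 stood at -0.03 and Atg16l1 at 0.08, neither of them called, where Snord17 and Scarna6 were lower. A general list of host genes, given below, held several that were called between the ranges. Hosts not called between LV_Sed and SM_Sed had higher median CPM in LV_Sed. These medians were 156 against 109 for Ipo7, 38.3 against 26.2 for Atg16l1 and 8.83 against 6.92 for Ncapd2. For Ipo7 and Atg16l1 the CPM ranges did not overlap, so their log2 values near 0 depend on the scaling edgeR used. The difference between a small RNA and its host was not itself tested.

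**Figure D5:**
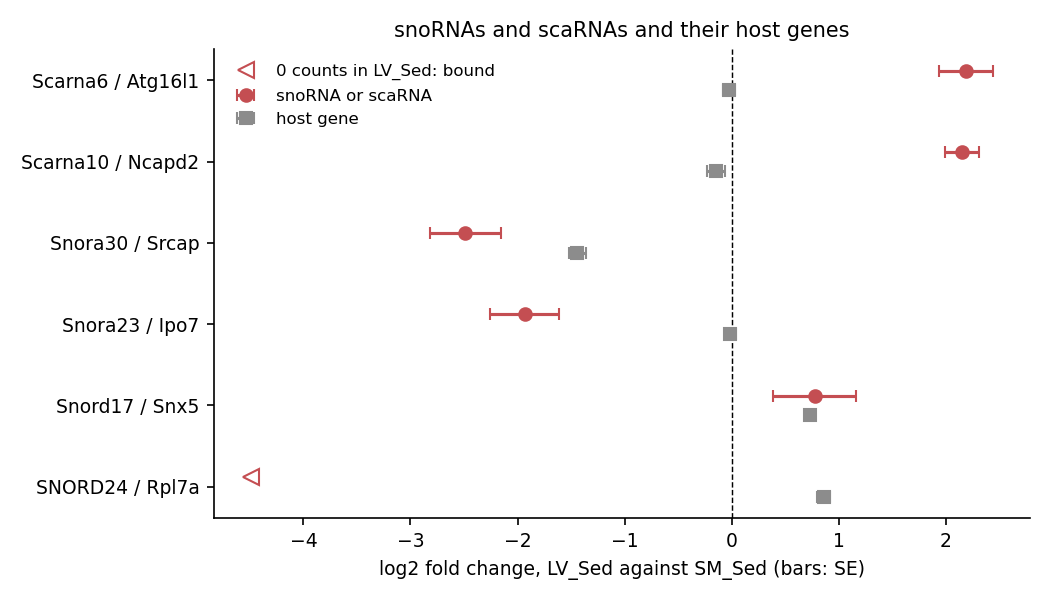
Log2 fold change of LV_Sed against SM_Sed (x axis) for 6 snoRNAs and scaRNAs and their host genes, without Snora5c, which had a median of 1 count in LV_Sed; bars are SE, and the open triangle marks the bound for SNORD24, which had no LV_Sed count. Scarna6 (2.19) and Scarna10 (2.15) lie above their hosts, and Snora23 (-1.93) below its own.

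The proteins that work with these RNAs did not pass the training test. Of 26 genes for snoRNP proteins and their assembly, 0 were called in SM, and 0 of 24 tested in MT and in LV, where the median values were -0.02 (SM), 0.05 (MT) and -0.03 (LV). At an unadjusted p under 0.05 were 1, 0 and 1 of them. In SM, 0 of 27 genes of RNA polymerase I and ribosomal RNA processing and 0 of 14 spliceosomal and Cajal body partners were called. Of a general list of 57 snoRNA host genes, not limited to hosts of the detected genes, 35 were tested in SM and 0 called. Between LV_Sed and SM_Sed, 17 of the 26 snoRNP genes were lower and 5 higher, where 82.2% of all genes were called, 40.8% lower and 41.4% higher. Fbl (fibrillarin), the C/D box methyltransferase, had 14.8 to 26 CPM in SM_Sed and 2.13 to 3.80 in LV_Sed, with no overlap and a log2 difference of -3.36. Gar1, an H/ACA protein, had 6.21 to 11.9 CPM in SM_Sed and 0.0527 to 0.452 in LV_Sed and was called lower, though it was too low in LV to be tested there alone. Nhp2 (-0.05) and Nop10 (0.15), of the same particle, were not called. Wrap53 (0.43) was among the 5 higher genes. In rats 17 to 32 against rats 2 to 16, 8 of the 26 were lower in SM and 0 higher, where 13% of all genes were called, 6.99% lower and 6% higher. Among the 8 were Nop10 at -0.82 (adjusted p 2.93e-05 by edgeR) and Fbl at -0.29. Between the same ranges 12 of the 35 tested host genes of the general list were lower and 2 higher. Of the 14 spliceosomal and Cajal body partners 5 were lower and 0 higher. Of the 27 genes of RNA polymerase I and ribosomal RNA processing 2 were lower and 0 higher.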

How the data were processed

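The values are counts per gene that the authors deposited as 3 tables (SM, MT and LV), raw whole numbers with gene identifier, symbol and biotype. The submitters' processing notes name FastQC 0.74, cutadapt 4.6, STAR 2.7.11a, HTSeq and the build mRatBN7.2, without their settings; handling of strand and of reads matching several places is not given in the sources used here, so near-identical copies are uncertain. No column belonged to any other sample. Counts were tested with edgeR 4.0.16 (quasi-likelihood, TMM, filterByExpr, robust; R 4.3.3) over all genes, Benjamini-Hochberg adjusted, called under 0.05; DESeq2 1.42.0 was an alternative. The fits recovered large known changes set on well-counted genes in simulated data. Changes as small as the members' training values, or in genes with counts as low as theirs in MT, were not simulated. Levels are CPM with nuclear-encoded counts as the total, computed with numpy 2.4.6 and pandas 2.3.3. The floor is 3 counts per library and covers counting error only.

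The same rat number in SM, MT and LV is the same animal; the median correlation of same-rat deviations was 0.00685 for MT and SM (30 rats) and 0.0348 for LV and SM (14). Sed and ExT share no rats. No 2 libraries agreed within sampling noise (smallest chi-square per degree of freedom 1.19). The members, the gene lists and the rat ranges were chosen with earlier results of these data known. Named genes were members with the smallest training p where none was called (3 for SM and LV), the 8 most abundant in SM_Sed, the 4 highest and lowest in MT and LV against SM, the 3 most and least variable, those at the edge of the rule, scaRNAs, U3 and SNORA73; genes lower between ranges were named after their values were seen. The snoRNP protein genes were named outside these rules, with their values known. Hosts are genes whose RefSeq span (GRCr8, used only for names and neighbours, strand not compared) holds the member. Alternatives were other scalings, filters, tools, rat ranges, a replicate block, thinning and libraries left out.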

Additional observations from a re-analysis of the deposited data

Results flagged for a closer look

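Within the groups of 7 left ventricle libraries, 48 sets of values were examined for a library far from the others, and chance alone marks about 1 in 20 such sets. There were 2 such libraries. ENSRNOG00000069135 had 11.3 CPM in sedentary rat 32, against 4.12 to 7.13 in the other LV_Sed libraries. Gm22009 had 116 CPM in trained rat 17, against 150.3 to 172 in the other LV_ExT libraries.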

How the results depend on the processing

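The alternatives changed none of the counts of called members in the training comparisons and the interactions, which stayed at 0 under every setting run. The medians in SM and LV for training stayed below 0 under every setting run. Leaving out trained rats 22 and 25 gave 24 genes called in SM training against 28, and SM training called 396 genes in rats 2 to 16, 1 in rats 17 to 32, 131 with DESeq2 and 45 with the range as covariate. The replicate block moved no count of called members by over 1.5 times; the median was -2.38 in MT_Sed against SM_Sed and -5.10 in LV_Sed against SM_Sed, and in LV_ExT against SM_ExT it was -5.48 (9 higher and 32 lower of 49). With the block Gm22154 was no longer called in MT_Sed (-0.75, adjusted p 0.0515 by edgeR), in LV_Sed (0.45, adjusted p 0.0670) or in LV_ExT (0.32, adjusted p 0.292), nor were Gm25395 (adjusted p 0.148), AC114512.2 (0.0500021) and Gm25848 (0.0722) in LV_ExT. Snord17 was called in LV_Sed with the block (1.38, adjusted p 0.0019). In MT_Sed against SM_Sed the median of -2.32 became -1.93 with RLE, -0.93 with library totals, -1.95 with DESeq2, -1.70 with no filter, -2.77 with nuclear-encoded genes only and -3.60 after thinning (2 members tested, 0 higher and 2 lower). Members higher were 7 with library totals and 1 with nuclear-encoded genes only, in rats 2 to 16 and in rats 17 to 32; members lower were 21 with library totals. In MT_ExT against SM_ExT the median of -2.08 became -1.70 with RLE, -0.64 with library totals, -1.31 with no filter, -1.54 in rats 17 to 32 and -3.03 without rats 22 and 25 (23 tested). Members higher were 6 with library totals, 4 with DESeq2, 5 with no filter and 0 in rats 2 to 16, without rats 22 and 25 and after thinning; members lower were 18 with library totals and 0 after thinning, when no member was tested. With library totals 13 of 40 members lay above 0 in MT_Sed, against 2, and 16 of 40 in MT_ExT, against 6. Of the members called before, these changed sign: in Sed U3 0.12, Snord17 0.022, SNORA74 0.74, Gm22154 0.75, AABR07072025.1 0.88 and SNORD24 0.18; in ExT U3 0.36, SNORA73 (ENSRNOG00000052439) 0.45, SNORA74 0.61, AABR07072025.1 0.55, Snora5c 0.29, SNORD79 0.24, Gm24494 0.28 and Gm23212 0.045. The median of LV_Sed against SM_Sed was -5.03 with library totals, -5.48 with DESeq2, -4.38 in rats 17 to 32 and -3.84 after thinning, and that of LV_ExT against SM_ExT was -5.33, -5.82, -5.21 and -3.80 in the same order; these are fitted values, and with genes without an LV count at their bound the medians were -3.16 and -2.90. For the difference of the training values the median was -0.16 for MT and SM after thinning and 0.21 for LV and SM in rats 17 to 32. Over all genes, thinning left 3940 called of 21648 in MT_Sed against SM_Sed and 1954 of 20092 in MT_ExT against SM_ExT. The test of MT against SM training values, with 5 genes called, called 0 with library totals and after thinning, 32 with DESeq2, 20 in rats 2 to 16, 1 in rats 17 to 32, 3 with the block and 9 without rats 22 and 25. DESeq2 called 1 gene in LV training and 1 in the test of LV against SM, where edgeR called 0. Thinning tests fewer genes; the cause of the other shifts was not tested. The MT depth limits what can be said of any member there but Scarna2.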
